A study of Homo sapiens with 4 samples.

Results

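The genes described here are 45 genes of fatty acid synthesis, fatty acid oxidation and lipid droplets, chosen by symbol out of 20263 genes in a count table of HCT116 cells, an established human colon cancer cell line. All 45 were found by their Ensembl identifiers, and 43 of them had enough counts to be tested. The cells were cultured for 24 h in medium with 10% serum, either with N_12, which the series title calls a derivative of the kinase inhibitor nilotinib, or with its solvent DMSO. Each group held 2 mRNA libraries, with total counts of 41717938 and 39865327 for N_12 replicates 1 and 2 and of 31120459 and 29769568 for DMSO replicates 1 and 2. No dose is stated, the N_12 samples carry another code (HJJ_3_5) as their treatment tag, and no engineered allele is named for either group. Whether the replicates were grown apart is not stated, so p-values reflect the spread of these libraries alone, and that spread may be technical.

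Fatty acids are built in the cytosol from acetyl-CoA, which ATP-citrate lyase and acetyl-CoA synthetase supply, acetyl-CoA carboxylase turns into malonyl-CoA and fatty acid synthase joins into palmitate. Desaturases and elongases then modify the chain, acyl-CoA synthetases activate it, and it is either stored as triglyceride in lipid droplets or carried by carnitine palmitoyltransferases into mitochondria for oxidation. Colon cancer lines commonly run this synthesis at a high rate, and malonyl-CoA, its first product, inhibits entry into oxidation. SREBP transcription factors drive many of the synthesis genes and PPAR receptors many of the oxidation and droplet genes.

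Epithelial keratins were abundant, while the intestinal markers CDX1, CDH17 and VIL1 were at or near 0. KRT8, a keratin of simple epithelia, stood at 1350 and 1524 CPM (counts scaled to the size of the library) in N_12 and at 1959 and 1742 CPM in DMSO. Of the 9 epithelial markers CDX1 alone had no count, and CDH17 and VIL1 had 10 counts or fewer per library. The adipocyte markers ADIPOQ, FABP4 and CIDEC, the fibroblast markers COL1A2, DCN and LUM, and the leukocyte markers PTPRC and CD3E had 0 counts in every library. The summed epithelial level was lower in both N_12 libraries (3351 and 3694 CPM) than in both DMSO libraries (4607 and 4075 CPM), and its part in the results was not tested. Within that list KRT18 overlapped between groups (log2 fold change 0.01), and the intestinal factor CDX2 went the other way, with 22.1 and 20.7 CPM in N_12, against 13.6 and 14.3 CPM in DMSO (0.62, interval 0.24 to 0.99, not called). The summed level of the 5 adipocyte markers was 1.40 and 1.47 CPM in N_12, against 1.38 and 1.73 CPM in DMSO, nearly all from PLIN1. LEP had 4 counts in each N_12 library and 0 in each DMSO library. That of the 4 fibroblast markers was 55.1 and 60.0 CPM in N_12 and 64.5 and 60.8 CPM in DMSO, and came from COL1A1 alone. That of the 4 leukocyte markers was 48.6 and 41.8 CPM in N_12 and 41.3 and 34.8 CPM in DMSO, nearly all from CD68, of which 81.7% of the exon bases are shared with another gene on the same strand. That of the 4 hepatocyte markers was 19.3 and 13.5 CPM in N_12 and 21.9 and 23.8 CPM in DMSO, nearly all from SERPINA1, and TTR was at 0.

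Levels per length were highest for 1 gene of desaturation and 1 gene of synthesis. SCD, the main stearoyl-CoA desaturase, had 1088 and 990.4 CPM per kb of exon in N_12, against 1145 and 1056 CPM per kb in DMSO. FASN, the fatty acid synthase, followed with 302 and 365 CPM per kb in N_12 and 348 and 287 CPM per kb in DMSO. These 2 genes took 67.6% to 69.9% of all counts of the 45 genes in each library. PLIN3, a droplet coat protein, and ACLY, the ATP-citrate lyase, came next in the order of mean level, at 94.6 and 76.4 CPM per kb over the 4 libraries, and the N_12 and DMSO libraries overlapped for each of these leading 4 genes. Apart from SCD and FASN, mean levels of tested synthesis and desaturation genes ran from 1.55 (FADS2) to 76.4 CPM per kb (ACLY). Those of oxidation genes covered a similar range, from 2.15 (CPT2) to 65.0 CPM per kb (ACADVL). Exon length was the union of all annotated exons, so levels of genes with long rarely used exons are understated.

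**Figure D1:**
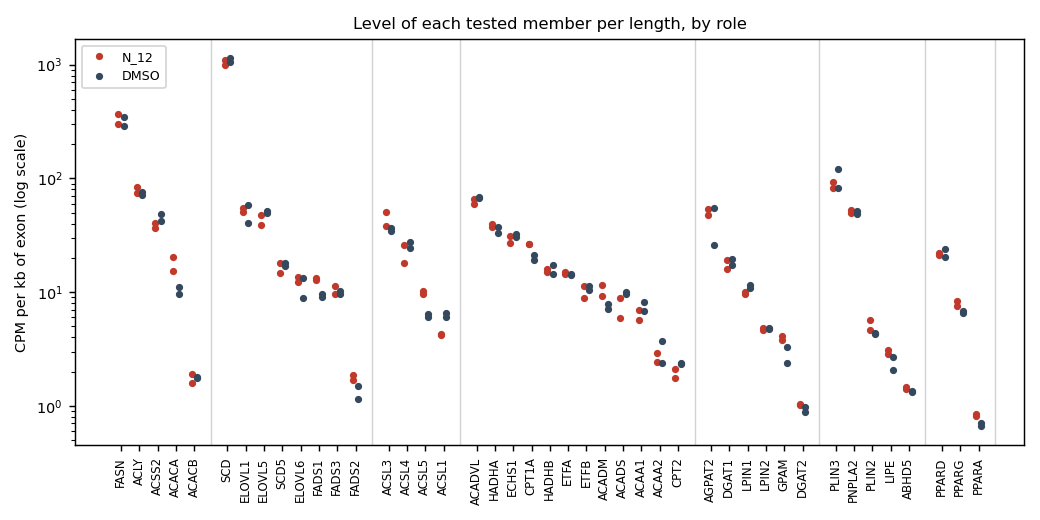
Level of the 43 tested genes in CPM per kb of exon (log axis), grouped by role and ordered by level, with 1 point per library and N_12 left of DMSO. SCD and FASN lie above every other gene, and for most genes the points of N_12 and DMSO lie close together.

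Ratios per length were taken for chosen sets of isoenzymes. SCD exceeded SCD5, a second desaturase, 60.9- and 66.7-fold in N_12 and 67.7- and 59.2-fold in DMSO. DGAT1 exceeded DGAT2, the other enzyme of the final step of triglyceride synthesis, 15.6- and 18.5-fold in N_12 and 20.1- and 19.3-fold in DMSO. PLIN3 exceeded PLIN2, the droplet coat protein whose amount usually follows droplet content, 17.9- and 16.4-fold in N_12 and 27.6- and 19.4-fold in DMSO. ACACA, the cytosolic acetyl-CoA carboxylase of synthesis, exceeded ACACB, the form tied to control of mitochondrial uptake, 9.59- and 10.6-fold in N_12, against 5.49- and 6.20-fold in DMSO. CPT1A, the liver form of the carnitine palmitoyltransferase of the outer membrane, exceeded CPT1B and CPT1C together 4.58- and 3.49-fold in N_12, against 2.54- and 2.15-fold in DMSO, although 66.4% of the exon bases of CPT1B are shared with another gene on the same strand. CPT1B and CPT1C were themselves lower in both N_12 libraries (log2 fold changes -0.31 and -0.53), without a call. The ratios of ACACA and CPT1A were higher, and those of DGAT1 and PLIN3 lower, in both N_12 libraries than in both DMSO libraries, while those of SCD overlapped. Ratios compare counts of different genes in the same library and were not tested.

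THRSP and G0S2 were not tested. THRSP, which promotes fatty acid synthesis in liver and fat, had 0 counts in both N_12 libraries and 2 and 0 counts in DMSO replicates 1 and 2. G0S2, an inhibitor of the triglyceride lipase PNPLA2, had 0 counts in all 4 libraries. A count of 0 allows up to 3 counts, or 0.0719 and 0.0753 CPM in N_12 and 0.0964 and 0.101 CPM in DMSO, and covers counting error only.

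N_12 was set against DMSO to find transcripts whose levels differed between treated and solvent cells. None of the 43 tested genes of fatty acid synthesis, oxidation and droplets passed an adjusted p of 0.05 in either direction in edgeR's quasi-likelihood fit (Benjamini-Hochberg adjusted over all 14105 tested genes). The share of all tested genes that passed was 2.25%, of which 0.822% were higher and 1.43% lower in N_12, so that a count of 0 among 43 genes lies near the background. At an unadjusted p under 0.05 there were 6 higher and 1 lower, or 16.3% of the 43, against 21.8% of all tested genes (11.0% higher and 10.8% lower). DESeq2 called 3 higher and 1 lower (9.30%), against 8.68% of all tested genes (3.91% higher and 4.78% lower). A GC and length correction in edgeR called 2 higher and 1 lower (6.98%), against 6.74% of all tested genes (2.98% higher and 3.75% lower), and limma-voom called 0 (0.929% of all tested genes). The 2 groups did not overlap for 21 of the 43 genes (48.8%), 14 higher and 7 lower in N_12, while they did not overlap for 54.7% of all tested genes (27.9% higher and 26.8% lower). In bulk libraries, fewer cells with a transcript and less of it per cell cannot be told apart.

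The sizes of the differences were bounded for most of these genes. The log2 fold changes of N_12 over DMSO ranged from -0.57 to 0.77 with a median of 0.03, and the median over all tested genes was 0.01. They were above 0 for 23 of the 43 (53.5%), against 51.0% of all tested genes. For 40 of the 43 genes (93.0%) the 95% interval lay within 1 log2 unit on either side of 0, that is, a 2-fold difference lay outside it. The same held for 73.2% of all tested genes and for 86.0% of the 10580 genes at or above 7.76 CPM on average, the mean of DGAT2, the least abundant tested member. The 3 exceptions were ACACA, ACSL5 and AGPAT2. AGPAT2, an acyltransferase of triglyceride and phospholipid synthesis, had the widest interval (-0.78 to 1.41), with 85.2 and 97.0 CPM in N_12 and 99.5 and 46.8 CPM in DMSO. DMSO replicate 2 alone was low, and without it the log2 fold change was -0.13.

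**Figure D2:**
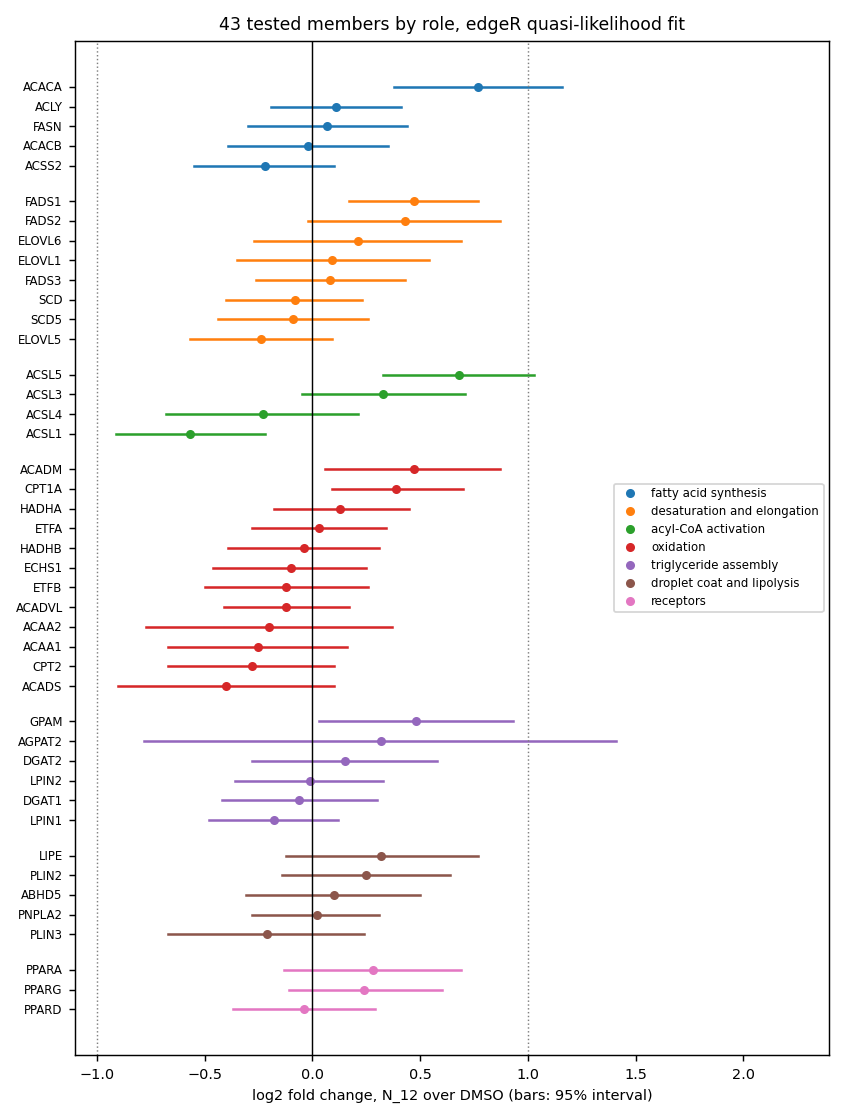
Log2 fold change of N_12 over DMSO (points) with its 95% interval (bars) for the 43 tested genes, grouped by role, with dotted lines at 1 log2 unit on either side of 0. Intervals of 36 genes include 0, those of 6 genes lie above it and that of ACSL1 lies below it.

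Synthesis, oxidation and droplet genes were compared by counts and medians. The 17 tested genes of synthesis and activation had a median log2 fold change of 0.08, with 10 above and 7 below 0. The 12 oxidation genes had a median of -0.11, with 4 above and 8 below 0. The 11 tested genes of droplets and triglycerides had a median of 0.10, with 7 above and 4 below 0. No gene of these groups was called by edgeR without further correction. Summed levels overlapped between the groups of libraries for each class. They were 10777 and 10795 CPM in N_12 and 11300.2 and 10291 CPM in DMSO for synthesis and activation, 1009 and 1083 CPM in N_12 and 1034 and 1032 CPM in DMSO for oxidation, and 824 and 885 CPM in N_12 and 966 and 778 CPM in DMSO for droplets and triglycerides. The sum for synthesis is mostly SCD and FASN. Without DMSO replicate 1 the synthesis median was -0.02, and without DMSO replicate 2 the droplet median was -0.02. The oxidation median ran from -0.20 to -0.04 with 1 library left out. Over all tested genes the median was 0.01, and 51.0% lay above 0. Differences between the classes were not tested.

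Promoter sequences are given for the pair of members with the largest differences, ACACA and ACSL5, for the droplet gene PLIN2, and for INSIG1 and ANGPTL4, genes of the wider pathway that fell. They come from RefSeq (GRCh38.p14), run 5′ to 3′ and cover 250 bases before to 50 after an annotated start, for ACACA 1 of 3 starts (chr17:37299718-37300017, minus strand) and for ACSL5 1 of 2 (chr10:112375955-112376254, plus strand). The others are PLIN2 (chr9:19127443-19127742, minus strand), INSIG1 (chr7:155297628-155297927, plus strand) and ANGPTL4 (chr19:8363905-8364204, plus strand). Capitals mark matches on either strand to AGGTCA, an element of nuclear receptors, to ACGTG, the core of the hypoxia element, or to CACGTG, the E-box, which contains the hypoxia core. The order of the lines is that of the names above. The ACSL5 start that is not printed (chr10:112375018-112375317, plus strand) held AGGTCA and no match to ACGTG. Every printed sequence holds ACGTG, but these sequences are a selection and do not give its share. Shares over all members follow the sequences.
ACACA: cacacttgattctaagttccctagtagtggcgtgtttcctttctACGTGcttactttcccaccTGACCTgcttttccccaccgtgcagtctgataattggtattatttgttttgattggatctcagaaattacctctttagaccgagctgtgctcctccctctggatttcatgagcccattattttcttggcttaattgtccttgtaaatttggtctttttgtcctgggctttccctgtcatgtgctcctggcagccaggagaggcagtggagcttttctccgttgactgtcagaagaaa
ACSL5: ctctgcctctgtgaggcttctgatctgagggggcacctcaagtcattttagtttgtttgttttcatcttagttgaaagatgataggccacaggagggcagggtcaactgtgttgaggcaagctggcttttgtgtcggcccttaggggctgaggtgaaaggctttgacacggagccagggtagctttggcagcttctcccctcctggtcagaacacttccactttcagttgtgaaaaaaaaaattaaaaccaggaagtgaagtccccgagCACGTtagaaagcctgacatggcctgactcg
PLIN2: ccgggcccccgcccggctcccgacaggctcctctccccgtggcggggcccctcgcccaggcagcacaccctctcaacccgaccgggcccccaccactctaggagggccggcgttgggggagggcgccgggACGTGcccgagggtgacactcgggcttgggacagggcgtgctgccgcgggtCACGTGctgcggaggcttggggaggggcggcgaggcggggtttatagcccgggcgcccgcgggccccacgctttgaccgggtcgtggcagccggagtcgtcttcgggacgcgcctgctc
INSIG1: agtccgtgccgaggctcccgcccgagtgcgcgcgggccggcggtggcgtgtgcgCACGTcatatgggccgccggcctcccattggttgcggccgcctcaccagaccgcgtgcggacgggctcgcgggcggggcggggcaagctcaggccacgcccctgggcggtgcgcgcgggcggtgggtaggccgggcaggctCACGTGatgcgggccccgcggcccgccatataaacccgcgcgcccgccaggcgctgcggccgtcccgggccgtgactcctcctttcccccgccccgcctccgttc
ANGPTL4: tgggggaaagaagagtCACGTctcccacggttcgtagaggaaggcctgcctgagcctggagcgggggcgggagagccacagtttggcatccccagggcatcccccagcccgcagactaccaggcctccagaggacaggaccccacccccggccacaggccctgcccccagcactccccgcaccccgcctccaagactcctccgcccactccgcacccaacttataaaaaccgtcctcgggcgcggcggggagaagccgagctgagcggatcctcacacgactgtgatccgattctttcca
Among the 41 members with a promoter in the table, ACGTG was found for 12 (29.3%) and for 24.9% of all genes there. CACGTG was found for 3 (7.32%) and for 8.77% of all genes, and AGGTCA for 5 (12.2%) and for 16.5%. The sterol element core TCACNCCAC was found for ACSL1 and PNPLA2 (4.88%, against 1.39% of all genes). The full sterol element and the paired receptor element DR1 were found for 0 of 41, against 0.190% and 0.0293% of all genes. FASN was among the members without a promoter entry, so these counts do not cover it. Members have more starts per gene in the table than other genes do, and counted per promoter the shares were 18.2% of 66 against 21.4% of all 35116 for ACGTG, which turns the order. Per promoter they were 4.55% against 7.26% for CACGTG, 10.6% against 13.8% for AGGTCA and 3.03% against 1.13% for TCACNCCAC. A match is a description of letters in this window.

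Among genes of acetyl-CoA supply and synthesis, ACACA (ENSG00000278540) showed the largest difference of all members. It had 199 and 262 CPM in N_12, against 125 and 145 CPM in DMSO, and both N_12 libraries lay above both DMSO libraries. The log2 fold change was 0.77 (SE 0.17, 95% interval 0.38 to 1.16), a 1.71-fold higher level that edgeR did not call (adjusted p = 0.0608). Of 13 other settings 3 called it, among them DESeq2 (adjusted p = 0.00389) and edgeR with a correction for GC content and length (0.0490), and the adjusted p ran from 0.00389 to 0.204. FASN (ENSG00000169710) had 2829 and 3419 CPM in N_12 and 3258 and 2690 CPM in DMSO, so the groups overlapped (log2 fold change 0.07, interval -0.30 to 0.44). ACLY had an interval of -0.19 to 0.41. ACACB stood at 23.1 and 27.5 CPM in N_12 and at 25.4 and 26.0 CPM in DMSO (-0.02, interval -0.39 to 0.35). ACSS2, the acetyl-CoA synthetase that uses acetate, had 198 and 220 CPM in N_12, against 262 and 226 CPM in DMSO, with both N_12 libraries lower (-0.22, interval -0.55 to 0.10, adjusted p = 0.389 by edgeR).

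Neither of the stearoyl-CoA desaturases separated the groups, whereas the polyunsaturated desaturases lay higher in N_12 without a call. SCD (ENSG00000099194), which makes oleate and palmitoleate, had 5833 and 5310 CPM in N_12, against 6139 and 5660 CPM in DMSO, with overlap between groups. Its log2 fold change was -0.08 (interval -0.40 to 0.23). SCD5 overlapped as well (76.7 and 63.7 CPM in N_12 and 72.6 and 76.6 CPM in DMSO). FADS1, the delta-5 desaturase of polyunsaturated fatty acids, had 136 and 130.3 CPM in N_12, against 93.5 and 98.5 CPM in DMSO, with both N_12 libraries above both DMSO libraries. Its log2 fold change was 0.47 (SE 0.13, interval 0.17 to 0.77, adjusted p = 0.0994 by edgeR), and DESeq2 called it (0.0238, with a range over 13 settings of 0.0238 to 0.428). FADS2, the delta-6 desaturase, lay next to it at a lower level, 18.6 and 20.6 CPM in N_12 against 16.6 and 12.6 CPM in DMSO (0.43, interval -0.02 to 0.87). FADS1 and FADS2 share 4.79% and 4.44% of their exon bases with each other on opposite strands, and the strand setting of the counting is not given. The other 4 genes of this group, FADS3, ELOVL1, ELOVL5 and ELOVL6, had log2 fold changes from -0.24 to 0.21 and intervals that included 0.

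The 4 acyl-CoA synthetases, which activate long chains by joining them to coenzyme A, did not share a direction. ACSL5 (ENSG00000197142), a form abundant in intestine, had 43.5 and 40.8 CPM in N_12, against 25.5 and 27.2 CPM in DMSO. ACSL1 (ENSG00000151726), the major form of fat, liver and heart, had 26.9 and 26.5 CPM in N_12, against 38.1 and 40.9 CPM in DMSO. The groups were apart for both genes, with ACSL5 higher and ACSL1 lower in N_12. Log2 fold changes were 0.68 for ACSL5 (SE 0.15, interval 0.33 to 1.03, adjusted p = 0.0642 by edgeR) and -0.57 for ACSL1 (SE 0.15, interval -0.91 to -0.22, adjusted p = 0.0943 by edgeR). DESeq2 called both (adjusted p = 0.00269 and 0.0137), as did edgeR with GC and length correction (0.0318 and 0.0370), while over 13 settings the adjusted p ran from 0.00269 to 0.283 for ACSL5 and from 0.0137 to 0.288 for ACSL1. ACSL3, an enzyme of growing droplets, had 370 and 274 CPM in N_12 and 249 and 264 CPM in DMSO, with both N_12 libraries higher (0.33, interval -0.05 to 0.71). ACSL4, which prefers arachidonate, overlapped between groups (-0.23, interval -0.68 to 0.21). ACSL5 shares 8.64% of its exon bases with genes on the other strand.

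**Figure D3:**
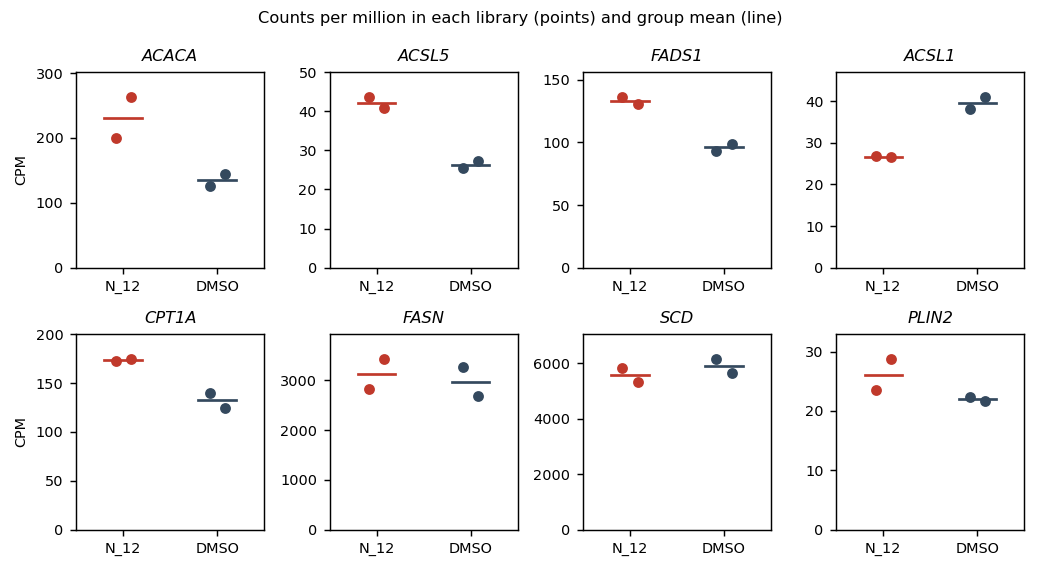
CPM of 8 genes in each library (points) with the group mean (line), N_12 left of DMSO, each axis starting at 0. ACACA, ACSL5, FADS1 and CPT1A lie higher and ACSL1 lower in both N_12 libraries, FASN and SCD overlap between groups, and PLIN2 lies slightly higher in N_12.

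Among oxidation genes CPT1A and ACADM lay higher, without a call. CPT1A (ENSG00000110090), the carnitine palmitoyltransferase that malonyl-CoA inhibits, had 173 and 174 CPM in N_12, against 139 and 125 CPM in DMSO. Both N_12 libraries lay above both DMSO libraries, and the log2 fold change was 0.39 (SE 0.13, interval 0.09 to 0.70, adjusted p = 0.147 by edgeR). ACADM, the medium-chain acyl-CoA dehydrogenase, had 55.5 and 43.9 CPM in N_12, against 34.2 and 37.9 CPM in DMSO (0.47, interval 0.06 to 0.87, adjusted p = 0.180 by edgeR). ACADVL, the very-long-chain dehydrogenase and the most abundant oxidation gene per length, had 289 and 318 CPM in N_12, against 335 and 324 CPM in DMSO (-0.12, interval -0.41 to 0.17). CPT2, the inner-membrane carnitine palmitoyltransferase, and ACADS, the short-chain dehydrogenase, also had both N_12 libraries below both DMSO libraries, with intervals of -0.67 to 0.10 and -0.90 to 0.10. The remaining 7 genes overlapped between groups. These were HADHA and HADHB, the subunits of the trifunctional protein, ETFA and ETFB, which pass electrons from the dehydrogenases onward, the hydratase ECHS1, and the thiolases ACAA1 and ACAA2, with log2 fold changes from -0.25 to 0.13. ACAA1 shares 19.7% of its exon bases with a gene on the other strand, and CPT2 shares 12.0% with genes on the other strand.

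Of the 6 genes of triglyceride assembly, GPAM and DGAT2 lay higher and LPIN1 lower in both N_12 libraries, without a call. GPAM, the mitochondrial acyltransferase of the first step, had 40.6 and 37.1 CPM in N_12, against 23.2 and 32.5 CPM in DMSO (0.48, interval 0.03 to 0.93, adjusted p = 0.206 by edgeR). The phosphatidate phosphatase LPIN1 had 119.8 and 114 CPM in N_12, against 138 and 128 CPM in DMSO (-0.18, interval -0.48 to 0.12), and LPIN2 overlapped. The last step showed 66.1 and 79.5 CPM of DGAT1 in N_12 and 80.7 and 71.1 CPM in DMSO, and 8.10 and 8.22 CPM of DGAT2 in N_12 and 7.67 and 7.04 CPM in DMSO. Their intervals were -0.42 to 0.30 and -0.28 to 0.58. Same-strand genes together cover 10.9% of the exon bases of DGAT1.

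Genes of the droplet surface and of lipolysis included no interval that left out 0. PLIN2 (ENSG00000147872) had 23.6 and 28.7 CPM in N_12, against 22.3 and 21.6 CPM in DMSO, with both N_12 libraries slightly higher (0.25, interval -0.14 to 0.64). PLIN3 had 233 and 259.7 CPM in N_12 and 339.9 and 232 CPM in DMSO (-0.21, interval -0.67 to 0.24). DMSO replicate 1 was the single high library of PLIN3, and without it the log2 fold change was 0.09. PLIN3 shares 17.8% of its exon bases with a gene on the other strand. The triglyceride lipase PNPLA2 (interval -0.28 to 0.31) and its activator ABHD5 (-0.31 to 0.50) bracketed 0. LIPE, the hormone-sensitive lipase, had 16.2 and 14.9 CPM in N_12, against 14.0 and 10.9 CPM in DMSO (0.32, interval -0.12 to 0.77).

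The PPAR receptors stood in the order PPARD, PPARG and PPARA by level per length in every library. PPARD had 94.3 and 97.4 CPM in N_12 and 106 and 90.5 CPM in DMSO, with overlap (-0.04, interval -0.37 to 0.29). PPARG, the receptor of fat storage, had 37.6 and 34.0 CPM in N_12, against 29.7 and 30.7 CPM in DMSO (0.24, interval -0.11 to 0.60). PPARA, the receptor of hepatic oxidation, had 10.8 and 11.1 CPM in N_12, against 8.76 and 9.32 CPM in DMSO (0.28, interval -0.13 to 0.69). Both N_12 libraries lay above both DMSO libraries for PPARG and PPARA. Per length PPARG exceeded PPARA 10.1- and 8.91-fold in N_12 and 9.90- and 9.62-fold in DMSO.

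A list of 77 other genes of lipid metabolism, written down with earlier results of these data known, included 5 called genes. Of these 77 genes 66 were tested, and edgeR called 1 higher and 4 lower (7.58%, against 2.25% of all tested genes). The median log2 fold change was -0.01. HILPDA and ANGPTL4, both called lower, were themselves chosen with those earlier results known. The share of calls was thus partly set by the choice, and nothing is drawn from its distance to the background. By subgroup the calls were 2 of 12 regulators, 3 of 18 droplet and triglyceride genes, 0 of 14 synthesis and elongation genes and 0 of 22 uptake and oxidation genes. At an unadjusted p under 0.05 there were 15 of the 66 (22.7%), against 21.8% of all tested genes. The fall was largest for HILPDA (ENSG00000135245), a droplet protein that inhibits PNPLA2, at 8.05 and 10.7 CPM in N_12, against 81.6 and 61.9 CPM in DMSO (log2 fold change -2.94, SE 0.22, adjusted p = 0.00201). ANGPTL4 (ENSG00000167772), a secreted inhibitor of lipoprotein lipase, fell to 31.9 and 34.0 CPM in N_12, against 149 and 116 CPM in DMSO (-2.01, SE 0.17, adjusted p = 0.00232 by edgeR). Both are known targets of low oxygen signalling. A same-strand gene covers 13.2% of the exon bases of HILPDA.

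The INSIG pair, endoplasmic reticulum proteins that hold back SREBP activation when sterols are plentiful, also fell. INSIG1 (ENSG00000186480) had 255 and 262 CPM in N_12, against 584 and 519 CPM in DMSO (-1.09, SE 0.13, adjusted p = 0.00986 by edgeR). INSIG2 (ENSG00000125629) had 19.3 and 16.4 CPM in N_12, against 53.5 and 49.1 CPM in DMSO (-1.52, SE 0.17, adjusted p = 0.00649 by edgeR). Transcripts of the SREBP genes were not called, with intervals of -0.32 to 0.37 for SREBF1 and -0.48 to 0.14 for SREBF2. SREBP activation was not measured.

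GPAT3 (ENSG00000138678), an acyltransferase of the first step of triglyceride synthesis in the endoplasmic reticulum, was the gene called higher. It rose to 157 and 139 CPM in N_12, against 82.4 and 82.2 CPM in DMSO (0.85, SE 0.13, adjusted p = 0.0248 by edgeR). The call was kept in 7 of 13 other settings (adjusted p from 4.93e-06 to 0.131), and ended with limma-voom (0.0513), without robust dispersions (0.0530) and when any 1 library was left out. Per length GPAT3 exceeded GPAM, its mitochondrial counterpart, 10.9- and 10.6-fold in N_12 and 10.1- and 7.16-fold in DMSO. SLC27A4, a fatty acid transport protein of enterocytes, had 52.1 and 59.9 CPM in N_12, against 35.8 and 30.4 CPM in DMSO (0.76, adjusted p = 0.0613 by edgeR). OXSM, the mitochondrial ketoacyl synthase, had 8.85 and 8.41 CPM in N_12, against 14.3 and 14.5 CPM in DMSO (-0.74, adjusted p = 0.0725 by edgeR). Of 13 other settings, 3 called SLC27A4 and 2 called OXSM, DESeq2 and the GC and length correction among them for both, and the adjusted p ran from 0.00237 to 0.186 for SLC27A4 and from 0.0113 to 0.228 for OXSM. On the other strand, 21.6% of the exon bases of OXSM are shared.

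**Figure D4:**
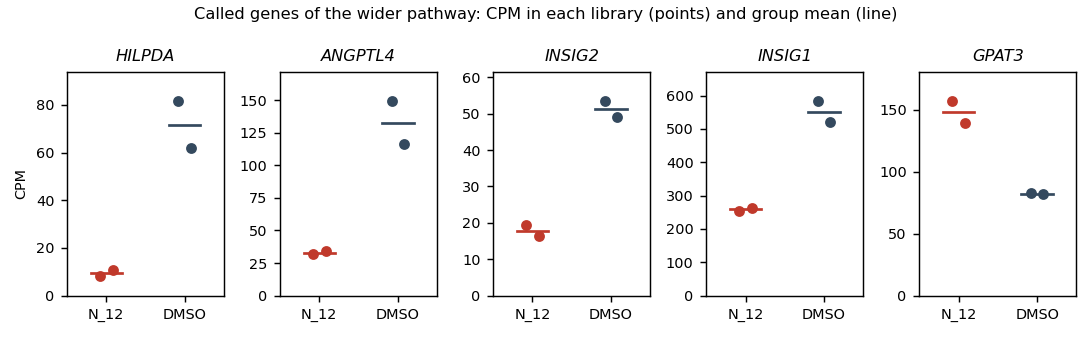
CPM of the 5 called genes of the wider pathway in each library (points) with the group mean (line), N_12 left of DMSO, each axis starting at 0. HILPDA, ANGPTL4, INSIG2 and INSIG1 lie lower and GPAT3 higher in both N_12 libraries, with no overlap.

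Other genes named by the same rule had unadjusted p-values under 0.05 and no call. PRKAA2, a catalytic subunit of the energy sensor AMPK, had 21.5 and 14.8 CPM in N_12, against 25.6 and 29.6 CPM in DMSO (-0.60, interval -1.09 to -0.11). Malic enzyme ME1, a source of NADPH for synthesis, had 102 and 85.6 CPM in N_12, against 72.4 and 65.5 CPM in DMSO (0.45, interval 0.10 to 0.80). MECR, the mitochondrial enoyl reductase, had a log2 fold change of 0.50, ACAD9, a dehydrogenase that also serves complex I assembly, one of 0.35, and CPT1C, a brain form of CPT1, one of -0.53. No gene of the table was called without N_12 replicate 1 or without N_12 replicate 2, although 2855 and 2763 genes then had an unadjusted p under 0.05. The falls of HILPDA, ANGPTL4, INSIG1 and INSIG2 kept their call in 11 of 13 settings, all but those 2.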

How the data were processed

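Messenger RNA was measured in 4 libraries of HCT116 cells, 2 given N_12 and 2 given DMSO, each built from 1.4 ug of total RNA (per the labels). Sample titles gave the groups and replicate numbers. The authors deposited whole-number counts per human Ensembl gene without normalization. Of the aligner, counter and strand setting, each not given in the sources used here, nothing was assumed. GRCm38 and mm10, both mouse builds, stand in the submitters' processing notes although the identifiers are human, so no coordinates of counted features are printed. Library totals ran from 29769568 to 41717938 counts, and no column was left unmapped.

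Symbols were found for 20148 of 20263 identifiers. GENCODE release 29 gave exon length, overlap and GC content, and RefSeq gave promoters. Counts were fitted in R 4.3.3 with edgeR 4.0.16: TMM scaling, edgeR's expression filter, robust quasi-likelihood fit without a replicate term, Benjamini-Hochberg adjustment over all tested genes, threshold 0.05, two-sided. Called genes are those past it. Standard errors came from the fold change and F statistic, and intervals are 95%. CPM uses TMM-scaled totals. Alternatives used limma 3.58.1 (limma-voom) and DESeq2 1.42.0, other scalings and filters, non-robust dispersions, a GC and length correction, a replicate term and leaving out each library. The fit was tested on simulated data, where it called 12 of 50 genes changed 1.5-fold, 31 of 50 changed 2-fold and 49 of 50 changed 4-fold. In that single run 1.5-fold differences were thus mostly missed, and 8 of its 150 calls fell on unchanged genes. Its changed genes were drawn without regard to the members and used dispersions from the trend. These shares therefore need not hold for the members. Counts of N_12 replicates (chi-square over degrees of freedom 59.7) and of DMSO replicates (37.5) differed beyond sampling noise. Each library was treated as 1 replicate, although whether the replicates were grown apart is not stated.

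The members and lists were chosen with earlier results of these data known. Named in full were any called gene, the 2 smallest p and the most abundant gene per length of each role, the listed isoenzymes, and of the other list every called gene and the 3 smallest p per group. Other members are given by interval or range. The promoters printed and the level of 7.76 CPM for the restricted background were chosen after values were seen.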

Additional observations from a re-analysis of the deposited data

How the results depend on the processing

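None of the 43 genes was called with DESeq2 size factors, library totals alone, either other filter, limma-voom, non-robust dispersions or any library left out. DESeq2 called 3 higher and 1 lower (ACACA, ACSL5, FADS1 and ACSL1), and the GC and length correction 2 higher and 1 lower (ACACA, ACSL5 and ACSL1; 6.98%, against 6.74% of all tested genes). All genes called numbered 317, against 1225 with DESeq2, 131 with limma-voom, 131 without robust dispersions, 950 with GC and length correction and 0 to 451 with 1 library left out. A replicate block gave 963 calls and 1 member called higher, ACACA (adjusted p = 0.00401), that is 2.33% of members against 6.83% of all tested genes. The numbers are shared by label only, and deviations of same-numbered libraries correlated at -0.0895 across genes.

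The synthesis median, 0.08, was 0.13 with library totals alone, where the median of all genes moved to 0.06, and -0.02 to 0.12 with 1 library left out. The oxidation median ran from -0.20 to -0.04 and the droplet median from -0.02 to 0.11 with 1 library left out. Signs near 0 turned for ACACB (0.03) and PPARD (0.01) with library totals alone and for FASN (-0.07) with GC and length correction. With 1 library left out they turned within ranges of -0.16 to 0.08 for ACACB, -0.07 to 0.22 for FASN, -0.24 to 0.04 for SCD5, -0.13 to 0.96 for AGPAT2, -0.20 to 0.05 for DGAT1, -0.46 to 0.09 for PLIN3 and -0.15 to 0.08 for PPARD. Of 481 values of 37 named genes under these settings, 442 kept direction and call, 13 gained a call, 14 lost it and 12 changed sign. The cause was not tested. With 2 libraries per group an exact permutation test cannot go below 0.333, so single values were not tested that way.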
